A study of Mus musculus with 4 samples.

Results

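The kinesin motor family was examined here on arrays of sorted mouse mammary epithelial cells. Its members were taken as every gene whose symbol in the array annotation starts with Kif or Kifc followed by a digit, which gave 41 of the 18194 named genes measured. Where a gene had several probe sets, the most intense on average was used. By the known role of their products, 13 were mitotic kinesins, 15 transport kinesins, 12 other kinesins (ciliary, microtubule-regulating and less studied motors), and 1, Kifc5b, was left unclassified. Kif2a, which acts at spindle poles and in neurons, was put with the other kinesins, so mitotic counts and medians leave it out. The lists were chosen with earlier results of these data known. Kif19a and Kif25, which were also listed, were not analysed here.

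The cells were Comma D beta, an established mouse mammary epithelial line, grown in DMEM F12 with 2% serum, insulin (5 ug/ml) and EGF (10 ng/ml). Doxycycline (dox) was given at 100 ng/ml for 1 day or left out, and cells with and cells without the surface marker Sca1 were then sorted from each culture condition. The 4 groups, of 1 array each, were therefore Sca1+ and Sca1- cells without dox (untreated) and Sca1+ and Sca1- cells with dox. The labels do not say what dox switches on in these cells, whether the fractions of a treatment came from 1 flask, or whether untreated cells received a vehicle. No group has a replicate, so no difference given here has an error or a test, and genes were counted by a fixed size: at least 2-fold, a log2 difference of 1.

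Kinesins are motor proteins that use ATP to move along microtubules or to take their ends apart. The mitotic members build the spindle, move and align chromosomes and drive cytokinesis, and most of them are made in the late cell cycle and removed as cells divide. The transport members carry vesicles, mitochondria and ciliary components and are present in cells that do not divide. Many late cell-cycle genes carry a short promoter element near the start site, the cell-cycle genes homology region (CHR), through which the MuvB complexes repress them in resting cells and activate them before mitosis, and often a CCAAT box, which is bound by NF-Y.

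RefSeq promoters of build GRCm38.p6, 250 bases before to 50 bases after a start site, were matched by symbol for 33 of the 41 members. A gene was counted as holding a motif when any of its promoters did: the 12 mitotic genes matched have 12 promoters, and the 10 transport and 10 other genes have 12 each. Shares over the table are shares of promoters. The CHR was searched on both strands in its usual spelling TTTGAA, which reads in reverse as TTCAAA. A second spelling, TTCGAA, is its own reverse complement. TTTGAA was found in 10 of the 12 mitotic kinesins with a promoter, against 17.9% of all 32851 promoters in the table. It was found in 1 of 10 transport kinesins, Kif1a, and in 2 of 10 other kinesins, Kif26b and Kif27. Of the 12 mitotic genes, 8 held a CHR within 30 bases of the start site, against 3.13% of all promoters, a window chosen after the matches were seen. None of the 10 transport genes and 2 of the 10 other genes did. The 8 mitotic ones are printed here 5′ to 3′ in the gene's direction, with the CHR in capitals and 30 bases each. They show the element that most mitotic members hold near the start site.
Kif11, chr19:37376351-37376380, + strand: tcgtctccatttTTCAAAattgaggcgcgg
Kif15, chr9:122951050-122951079, + strand: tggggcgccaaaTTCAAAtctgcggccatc
Kif22, chr7:127042420-127042449, - strand: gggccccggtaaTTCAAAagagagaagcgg
Kifc1, chr17:33890615-33890644, - strand: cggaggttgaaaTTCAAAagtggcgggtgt
Kif23, chr9:61946780-61946809, - strand: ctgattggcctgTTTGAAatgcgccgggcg
Kif18b, chr11:102925104-102925133, - strand: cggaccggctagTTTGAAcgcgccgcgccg
Kif20b, chr19:34922353-34922382, + strand: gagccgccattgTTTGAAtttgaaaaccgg
Kif4, chrX:100626072-100626101, + strand: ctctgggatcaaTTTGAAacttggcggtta

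The first base of the match lay 19 bases before the start site in Kif11 and Kif15, 17 before it in Kif22, and at positions 2, 3, 4, 8 and 20 of the transcript in Kifc1, Kif23, Kif18b, Kif20b and Kif4. Kif20b holds a second copy directly after the first, in lower case in its line, and Kif15 and Kif22 hold another match 234 and 215 bases before the start site. Of the remaining mitotic members, Kif2c has its match 103 bases and Kif14 228 bases before the start site, Kif18a and Kif2b have none in the 300 bases, and Kif20a was not matched. The box CCAAT is written ATTGG on the other strand. It stood in 8 of the 12 mitotic genes, 3 of the 10 transport genes, 4 of the 10 other genes and 37.4% of all promoters. CHR and CCAAT occurred together in 7 mitotic genes and no transport gene, against 7.52% of all promoters. They also did so in 3 of the 10 other genes, Kif24, Kif26b and Kif27. An E2F site, TTTGGCGC on either strand, was found in Kif15 and Kif18a and in 0.514% of all promoters. No match of 1 motif overlapped a match of another in these promoters. The 150 bases before the start sites of Kif11 and Kif22 show the arrangement, with CCAAT and CHR in capitals.
Kif11, chr19:37376232-37376381, + strand: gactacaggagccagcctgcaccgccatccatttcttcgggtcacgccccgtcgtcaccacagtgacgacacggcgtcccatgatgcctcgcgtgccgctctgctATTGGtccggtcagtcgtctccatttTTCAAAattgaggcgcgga
Kif22, chr7:127042421-127042570, - strand: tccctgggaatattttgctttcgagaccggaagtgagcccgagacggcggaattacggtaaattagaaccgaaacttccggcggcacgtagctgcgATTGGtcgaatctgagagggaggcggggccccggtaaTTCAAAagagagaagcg

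**Figure D1:**
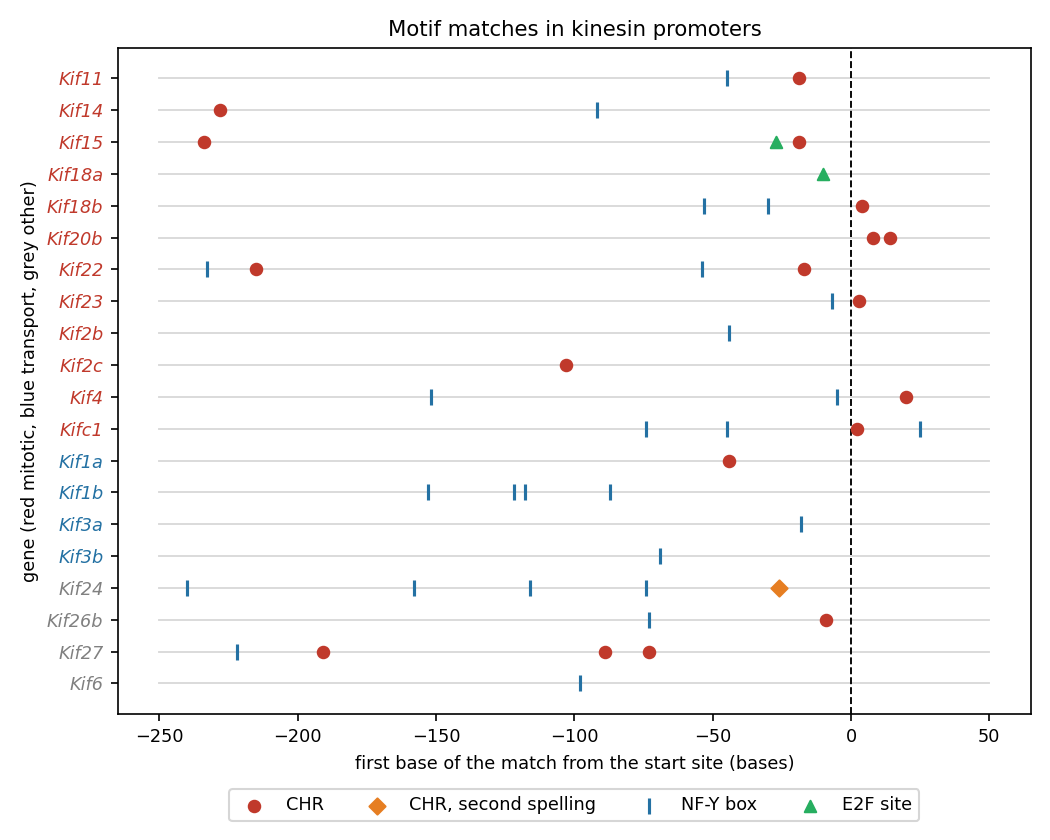
Positions of motif matches in the promoters of kinesin genes that hold at least 1 of the motifs; the x axis is the first base of a match in bases from the start site (dashed line) and each line is a gene (red mitotic, blue transport, grey other). The NF-Y box is the CCAAT motif. In 8 mitotic genes a CHR match lies within 30 bases of the start site, and Kif15 and Kif22 have a second one further out; where a gene has several start sites in the table, matches from each are shown.

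Levels are the authors' deposited log2 values, in which every array has the same lowest value of 3.32, the log2 of 10. A value there, called the floor, is a bound and not a measured level, and it held 44.8% to 48.0% of the 45101 probe sets on an array. Levels of different probe sets are not comparable with each other, so each gene is read across the arrays only. For comparison with all genes, 12264 genes were used that reached the overall median level of the table (3.63) on 1 array or more, and 32 of the 41 kinesins were among them. These were 10 of 13 mitotic, 12 of 15 transport and 10 of 12 other kinesins. Counts and medians of the kinesin lists are nevertheless over all measured members, so their base differs from that of all genes analysed. Bcl11b, the gene named in the series title, went with dox from 6.87 to 12.11 in Sca1+ and from 6.29 to 11.99 in Sca1- cells by its most intense probe set, while none of its other 3 probe sets was higher with dox.

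Of the 13 mitotic kinesins, Kif2b, Kif14 and Kif15 lay at the floor on all 4 arrays, each with a single probe set, so nothing can be read from them. The other 10 were above the floor on every array. Their level was lowest in dox Sca1- cells in 10 of 10, and highest in untreated Sca1+ cells in all but Kif22. Among all genes analysed, 10.1% had their highest level in untreated Sca1+ and their lowest in dox Sca1- cells. So did 3 of the 10 other kinesins analysed (Kif2a, Kif21a and Kif24) and 0 of the 12 transport kinesins analysed. In bulk samples of sorted cells, fewer cells in division and less RNA per cell cannot be told apart.

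**Figure D2:**
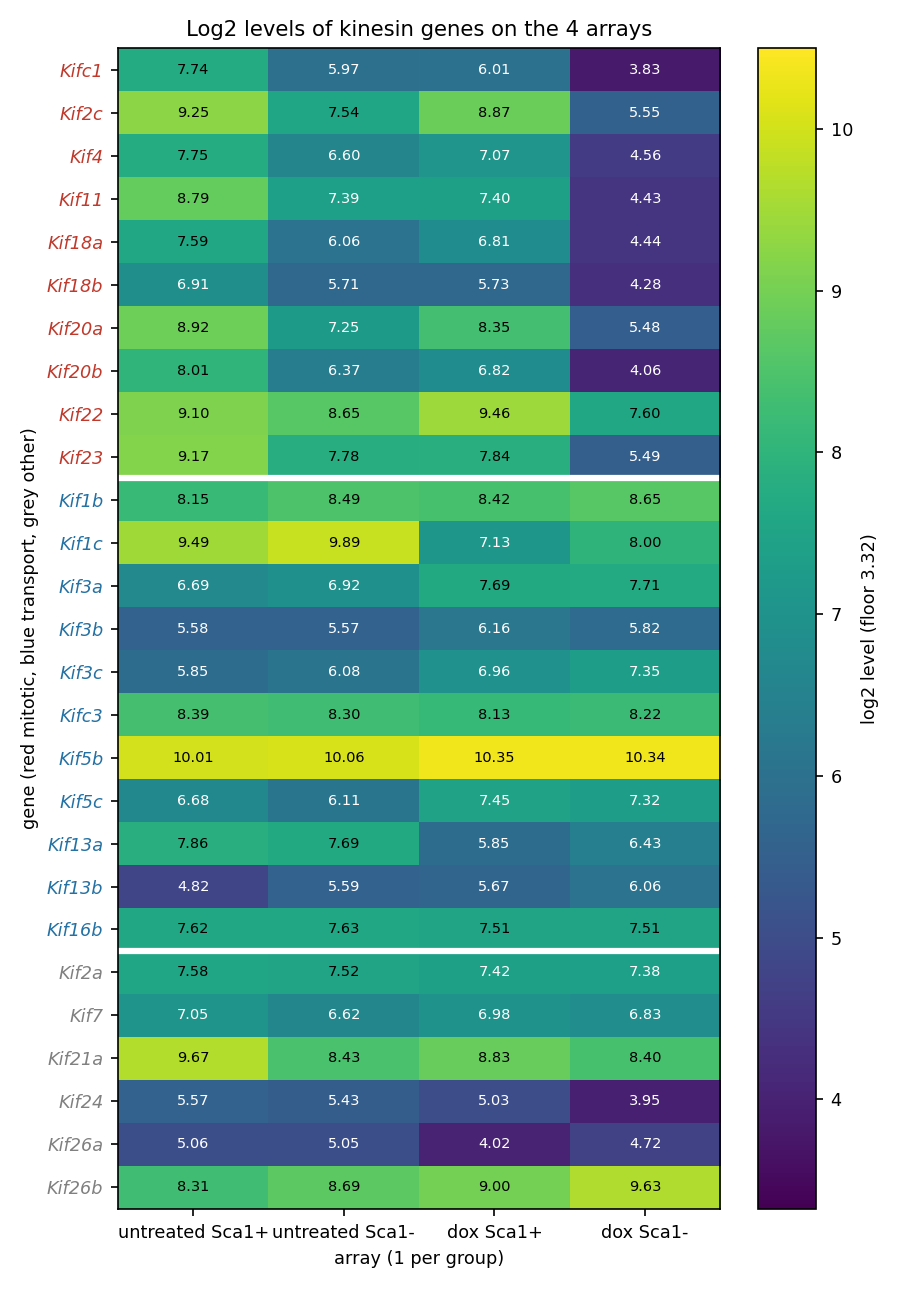
Log2 levels of the 27 kinesin genes with at least 1 array at a linear level of 32 or more (10 mitotic in red, 11 transport in blue, 6 other in grey) on the 4 arrays, 1 per group; colour and number give the level, with the floor at 3.32, and rows are to be read across. Mitotic rows are darkest in dox Sca1- cells, for example Kif11 at 4.43 against 8.79 in untreated Sca1+ cells, while the transport row of Kif16b stays between 7.51 and 7.63.

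With dox, 5 of 13 mitotic kinesins were at least 2-fold lower in Sca1+ cells, where 12.9% of all genes analysed were, and 10 of 13 in Sca1- cells, where 11.3% were. None was 2-fold higher in either fraction. Over all 13 the median log2 difference was -0.68 in Sca1+ and -1.77 in Sca1- cells, beside 0.03 and 0.02 over all genes analysed. The 5 that were 2-fold lower in both fractions, as were 8.56% of all genes analysed, were Kif11, Kif18b, Kif20b, Kif23 and Kifc1. Of these, Kif18b and Kifc1 were at -0.71 and -0.97 (log2) in Sca1- cells when every level under 32 was set to 32, which ends their 2-fold call there and leaves 8 of 13 in that fraction. With the mean of all probe sets of a gene, which brings in dim ones, Kif20b (-0.51) and Kif23 (-0.92) were not 2-fold lower in Sca1+ cells, nor were Kif20b (-0.67) and Kif18a (-0.81) in Sca1- cells.

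Kif11, the plus-end motor that pushes spindle poles apart, read 8.79 in untreated Sca1+, 7.39 in untreated Sca1-, 7.40 in dox Sca1+ and 4.43 in dox Sca1- cells. It was 2.62-fold lower with dox in Sca1+ and 7.77-fold lower in Sca1- cells, and its 3 probe sets were lower with dox in both fractions. Kif23, the motor subunit of the centralspindlin complex that organises the midzone, read 9.17, 7.78, 7.84 and 5.49 in the same order. That is 2.52-fold lower with dox in Sca1+ and 4.89-fold in Sca1- cells. By their most intense probe sets, both genes read nearly the same on the dox Sca1+ and untreated Sca1- arrays. These levels lay between a high untreated Sca1+ and a low dox Sca1- array. Of dimmer probe sets, 1453748_a_at of Kif23 read 4.74 in dox Sca1+ and 4.22 in untreated Sca1- cells. For Kif11, 1452314_at read 6.31 and 5.99, and 1452315_at read 5.01 and 5.09.

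Kifc1, a minus-end motor that focuses spindle poles, read 7.74, 5.97, 6.01 and 3.83, the last close to the floor. It was 3.32-fold lower with dox in Sca1+ and 4.40-fold in Sca1- cells. The single Kifc1 probe set is of the _s_at type, which can detect related transcripts. Transcript and probe sequences of Kifc1 and Kifc5b were not compared. Their promoter windows, each taken around a CHR, share 28 of 30 bases, as the line for Kifc1 given earlier and this one show.
Kifc5b, chr17:26917108-26917137, + strand: cggaggttgaaaTTCAAAagtgactggtgt
The array's own Kifc5b probe set lay at the floor throughout, and the share of each gene in the Kifc1 signal was not tested.

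Kif18b, which shortens astral microtubules, read 6.91, 5.71, 5.73 and 4.28, or 2.26-fold lower with dox in Sca1+ and 2.69-fold in Sca1- cells. Kif20b, a cytokinesis motor, read 8.01, 6.37, 6.82 and 4.06 and was 2.29-fold and 4.98-fold lower. A second Kif20b probe set was lower by 0.86 and by at least 0.35 (log2), and the remaining pair lay at the floor. These genes share with Kif11 a low dox Sca1- level and a fold change with dox that was larger in Sca1- than in Sca1+ cells.

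A second set of mitotic motors was less than 2-fold lower with dox in Sca1+ cells. Kif2c, which depolymerises microtubules at centromeres and corrects faulty attachments, read 9.25, 7.54, 8.87 and 5.55, so that dox was accompanied by a 1.30-fold lower level in Sca1+ and a 3.98-fold lower level in Sca1- cells. Kif20a, which carries the chromosomal passenger complex to the midzone, read 8.92, 7.25, 8.35 and 5.48, or 1.48-fold and 3.40-fold lower. Kif4, a chromosome-bound motor that acts with Prc1 to set midzone length, read 7.75, 6.60, 7.07 and 4.56, or 1.60-fold and 4.11-fold lower. Kif18a, which damps chromosome movement at kinetochores, read 7.59, 6.06, 6.81 and 4.44, or 1.72-fold and 3.08-fold lower. By the most intense probe sets, the dox Sca1+ level of these 4 genes lay above the untreated Sca1- level, by 0.48 (Kif4) to 1.34 (Kif2c). It was within 0.1 of it in Kif11, Kif18b, Kif23 and Kifc1, and Kif20b lay between, at 0.44. A dimmer Kif23 probe set, at 4.74 and 4.22, was not within 0.1, so this split depends on the probe set. The share of all genes within 0.1 was not counted.

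Kif22, a chromosome-bound motor that pushes chromosome arms away from the poles, was the exception in Sca1+ cells, and its probe sets did not share a direction. The most intense one, 1437716_x_at, read 9.10, 8.65, 9.46 and 7.60, which is 1.28-fold higher with dox in Sca1+ and 2.07-fold lower in Sca1- cells. In contrast, probe set 1451128_s_at read 8.56, 7.17, 7.23 and 4.48, a log2 difference of -1.33 in Sca1+ and -2.69 in Sca1- cells. Probe set 1423813_at read 7.06, 5.58, 5.85 and 4.01, a difference of -1.21 and -1.56. By the dimmer pair Kif22 follows the order of Kif11 and Kif23, and by the most intense it does not. RefSeq lists a pseudogene of Kif22, and an _x_at probe set can detect similar sequences, which was not tested here.

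Across all 26 probe sets of mitotic kinesins, 17 from 10 genes had an array at a linear level of 32 or more. Of these 17, 16 were lower with dox in Sca1+ cells and 17 in Sca1- cells, and all 17 had positive Sca1 differences under either treatment. The share of all probe sets with these signs was not counted. Probe sets 1440924_at of Kif20b and 1453748_a_at of Kif23 reached 32 only on the untreated Sca1+ array. The sign of their differences from that array was therefore fixed in advance. The Kif2c probe set 1454221_a_at, below 32 throughout, gave 0.25 (log2) with dox in Sca1+ and -0.67 in Sca1- cells. Its Sca1 difference was -0.25 without and 0.67 with dox. Apart from the Kif22 probe set named before, the 17 probe sets shared a direction. Those of Kif11 gave dox differences of -2.96 and -2.07 in Sca1- cells, and the remaining one, at the floor on the dox Sca1- array, was lower by at least 1.77 (log2).

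**Figure D3:**
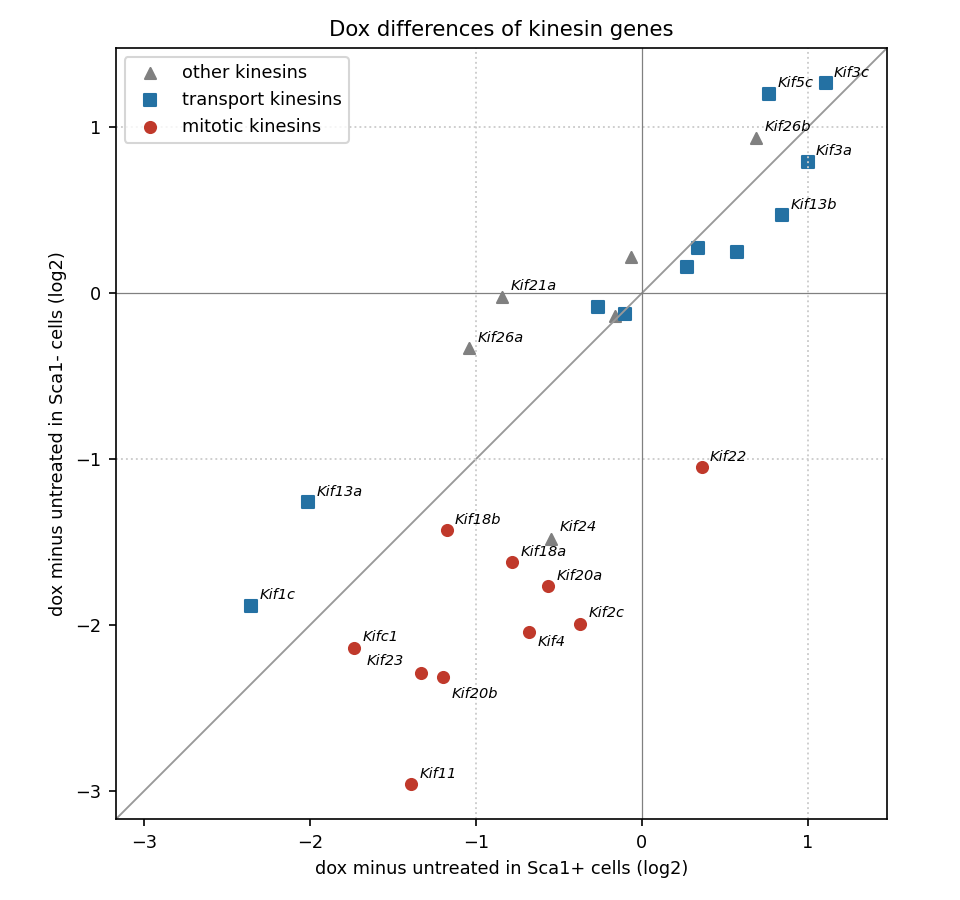
Dox minus untreated log2 differences of the 27 kinesin genes with an array of 32 or more, in Sca1+ cells (x axis) and Sca1- cells (y axis); dotted lines mark 2-fold, the diagonal marks equal differences, and each point is 1 gene without replicates. All 10 mitotic genes (red circles) lie below the diagonal, from Kif22 (0.36, -1.05) to Kif11 (-1.39, -2.96), while transport genes (blue squares) spread along it from Kif1c (-2.36, -1.88) to Kif3c (1.11, 1.27).

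For all 10 mitotic genes above the floor, the dox difference was lower in Sca1- than in Sca1+ cells by the most intense probe set. Dimmer probe sets of Kif20b and Kif23 lay at the floor on the dox Sca1- array, so their differences there are bounds and cannot be ordered. The difference between their dox differences (Sca1+ minus Sca1-) ran from 0.25 in Kif18b and 0.40 in Kifc1 to 1.57 in Kif11 and 1.62 in Kif2c, and was 1 or more in 6 of 10. Of all genes analysed, 3.69% reached 1 and 48.7% were above 0. This quantity has no replicate check either. The Kifc1 level of 3.83 in dox Sca1- cells is close to the floor, which can shorten a difference.

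In untreated cells, 9 of 13 mitotic kinesins exceeded 2-fold in favour of the Sca1+ fraction, against 3.07% of all genes analysed. With dox, 10 of 13 did, against 2.52%. The same 9 were higher both times, against 1.08%. None of the 13 was 2-fold lower, where 3.33% of all genes were without dox, 2.98% with dox and 0.881% both times. Over all 13 the median log2 difference was 1.39 without and 2.35 with dox, beside -0.01 and -0.03 over all genes analysed. These differences use the same 4 arrays as the dox differences, so they are the same levels read the other way and no separate evidence.

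Kif2c had the largest Sca1 difference with dox among the members, 3.27-fold without and 10.0-fold with dox. The Kif2c probe set is of the _x_at type, as for Kif22; the most intense of the others gave 1.01 (log2) without dox and at least 2.97 with dox, and the mean of all 4 gave 0.65 and 1.78. Kif11 was 2.65-fold and 7.86-fold higher in Sca1+ cells, Kif20a 3.18-fold and 7.32-fold, and Kif20b 3.12-fold and 6.77-fold. Kif4 went from 2.23-fold to 5.72-fold, Kif18a from 2.89-fold to 5.18-fold and Kif23 from 2.62-fold to 5.09-fold. The differences of Kifc1 (3.41-fold and 4.52-fold) and Kif18b (2.29-fold and 2.72-fold) were closest to each other with and without dox. Kif22 was 1.37-fold and 3.63-fold higher by its most intense probe set, and by 1.39 and 1.48 (log2) without dox by the dimmer pair.

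**Figure D4:**
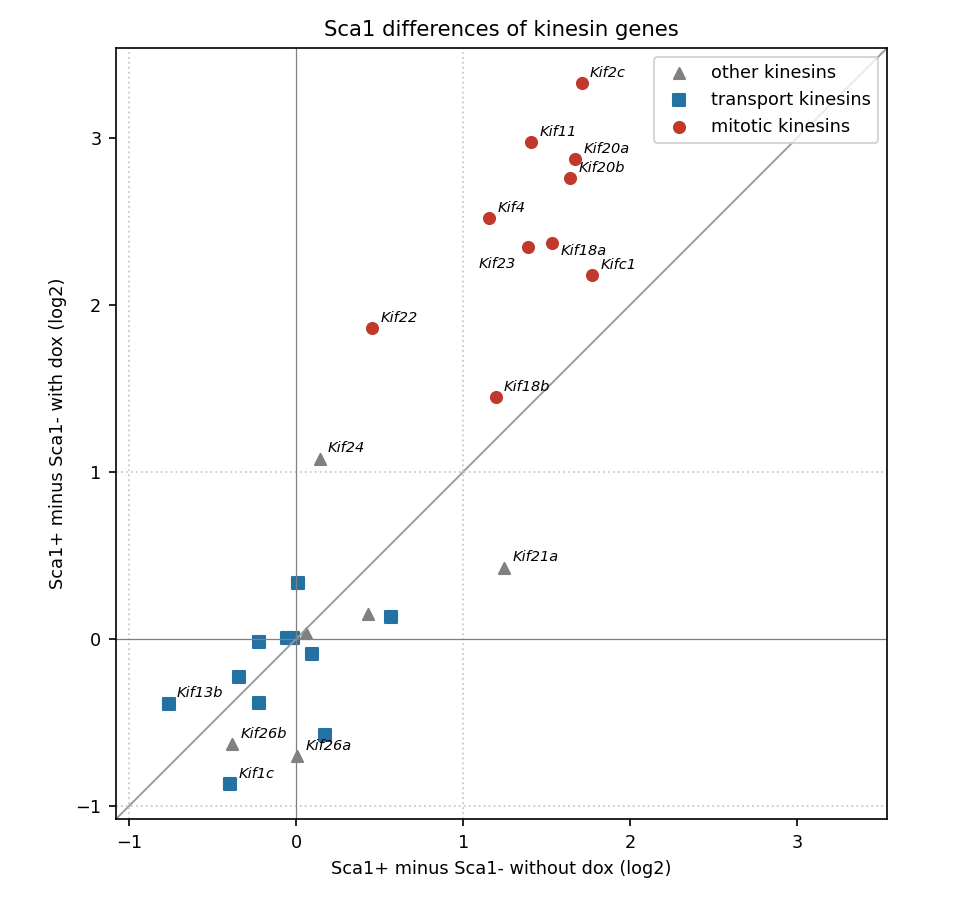
Sca1+ minus Sca1- log2 differences of the same 27 kinesin genes without dox (x axis) and with dox (y axis); dotted lines mark 2-fold and the diagonal marks equal differences. Mitotic genes (red circles) lie above the diagonal, with Kif2c at 1.71 and 3.33, and transport genes (blue squares) lie between -0.87 and 0.57 on both axes.

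Among transport kinesins, none of the 15 was 2-fold different between Sca1+ and Sca1- cells, with or without dox, where their log2 differences ran from -0.76 to 0.61 and from -0.87 to 0.33. Over all genes analysed, 3.07% were 2-fold higher and 3.33% lower in Sca1+ cells without dox, and 2.52% and 2.98% with dox, so that 0 of 15 is near the background. With dox, 2 of 15 were 2-fold lower in each fraction, and 1 of 15 in Sca1+ and 2 of 15 in Sca1- cells were 2-fold higher, where 8.47% and 7.20% of all genes analysed were. Their median dox difference was 0.27 in Sca1+ and 0.16 in Sca1- cells, beside 0.03 and 0.02 over all genes analysed. These medians include Kif1a, Kif5a, Kif17 and Kifc2, which lay at or near the floor, and the members went in different directions.

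Kif1c, a motor of Golgi-to-ER and dense-core vesicle transport, read 9.49 in untreated Sca1+, 9.89 in untreated Sca1-, 7.13 in dox Sca1+ and 8.00 in dox Sca1- cells. It was 5.12-fold lower with dox in Sca1+ and 3.69-fold lower in Sca1- cells, the largest fold of any kinesin in Sca1+ cells. Each of its 3 probe sets with an array of 32 or more was lower with dox in both fractions. Kif13a, which moves recycling endosomes, read 7.86, 7.69, 5.85 and 6.43 in the same order, or 4.03-fold and 2.39-fold lower, and all 5 of its probe sets were lower in both fractions. For both genes the dox arrays lay below the untreated arrays without overlap, and the share of all genes that do so was not counted. By their most intense probe sets the difference was larger in Sca1+ cells. A dimmer Kif1c probe set gave -1.51 in Sca1+ and -1.60 in Sca1- cells and a dimmer Kif13a one -0.92 and -1.07, so that this order was not shared. With the mean of its 5 probe sets, Kif13a was just under the size rule in Sca1- cells. As a share, 2 of 15 is close to the 12.9% and 11.3% of all genes analysed that were 2-fold lower with dox. Of the 15, 12 were among the genes analysed, Kif1c and Kif13a included.

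Of the Kif3 genes, Kif3c passed the 2-fold rule with dox and Kif3a and Kif3b did not, on the deposited scale. Kif3a read 6.69, 6.92, 7.69 and 7.71, which is 2.00-fold higher in Sca1+ cells, a log2 difference of 1.00 that is just under the size rule before rounding (1.06 with quantile normalization and 1.07 with centring on genes of 100 or more), and 1.73-fold higher in Sca1- cells. A dimmer Kif3a probe set, 1449841_at, gave 1.13 and 1.00 (log2), and 4 of 4 were higher with dox in both fractions. Kif3b, its usual partner, which was named after its values were seen, read 5.58, 5.57, 6.16 and 5.82, or 1.49-fold and 1.19-fold higher, and 1 of its 3 probe sets with an array of 32 or more was at -0.01 in Sca1- cells. Kif3c, an alternative partner of Kif3a, read 5.85, 6.08, 6.96 and 7.35, or 2.15-fold and 2.41-fold higher, and was the 1 kinesin at least 2-fold higher in both fractions, as were 5.29% of all genes analysed. The mean of its 2 probe sets, of which the other read at or below 4.29, gave 0.79 in Sca1+ cells. Kifap3, the accessory subunit that binds the motor pair and is no member by symbol, was at 0.65 and 0.50 (log2).

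Heavy chains of conventional kinesin differed in size. Kif5b, the ubiquitous one, read 10.01, 10.06, 10.35 and 10.34, or 1.26-fold and 1.21-fold higher with dox; 4 of its 5 probe sets with an array of 32 or more were higher in Sca1+ and 5 in Sca1- cells. Kif5c, known from neurons, read 6.68, 6.11, 7.45 and 7.32, or 1.70-fold higher in Sca1+ and 2.30-fold in Sca1- cells (0.56 on the log2 scale in Sca1- cells by the mean of its 4 probe sets, 2 of them at the floor). Kif5a, the neuronal one, stayed between the floor and 3.55. By their most intense probe sets, the dox arrays of Kif5b and Kif5c lay above their untreated arrays without overlap. For Kif5b this depended on the probe set, since the arrays overlapped by 1418429_at and by the dim 1453524_at. How many of all genes show such a separation was not counted.

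Kif1b, which carries mitochondria and synaptic vesicle precursors, read 8.15, 8.49, 8.42 and 8.65, a difference of 0.27 and 0.16, and all 7 of its probe sets were above 0 in both fractions. Kif13b read 4.82, 5.59, 5.67 and 6.06, or 1.80-fold and 1.39-fold higher. Kif16b, a motor of early endosomes, read 7.62, 7.63, 7.51 and 7.51. Kifc3, a minus-end motor at cell junctions, read 8.39, 8.30, 8.13 and 8.22. Kif16b spanned 0.12 and Kifc3 0.27 (log2) over the 4 arrays. Kif1a, Kif17 and Kifc2 read between the floor and 3.96, too near it for a fold.

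Among other kinesins, Kif24 and Kif21a were the 2 with a 2-fold difference between the fractions. Kif24, a centriolar kinesin that restrains cilium formation, read 5.57, 5.43, 5.03 and 3.95, so it was 1.46-fold lower with dox in Sca1+ and 2.80-fold lower in Sca1- cells, and the Sca1+ level exceeded the Sca1- level 1.10-fold without and 2.11-fold with dox. As with most mitotic members, and with Kif21a and Kif2a, it was highest in untreated Sca1+ and lowest in dox Sca1- cells. Its untreated levels were nearly equal, however. These calls end when levels under 32 are set to 32 (-0.43 with dox in Sca1- cells and 0.03 between fractions with dox, log2) and with the mean of its 3 probe sets (-0.49 and 0.36). Its promoter is the 1 kinesin promoter with the second CHR spelling, 26 bases before the start site, and holds CCAAT 4 times.
Kif24, chr4:41464857-41464886, - strand: tcggcgcgcgcgTTCGAActggcgcttgtg

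Kif21a, which restrains microtubule growth at the cell cortex, read 9.67 in untreated Sca1+ cells and 8.43, 8.83 and 8.40 on the other arrays. The Sca1+ level exceeded the Sca1- level 2.37-fold without and 1.34-fold with dox, and a second probe set gave 1.41 and 0.48 (log2); the mean that includes the remaining one, at the floor throughout, gave 0.89 without dox. This is the opposite of the mitotic members, whose Sca1 difference was larger with dox. Kif26b, a family member without motor activity that acts in cell adhesion and Wnt signalling, read 8.31, 8.69, 9.00 and 9.63, or 1.61-fold and 1.92-fold higher with dox. Its promoter holds TTTGAA 9 bases before the start site, and a link between such matches and levels was not tested.
Kif26b, chr1:178529104-178529133, + strand: tgggagaatttcTTTGAActcagttagcga

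Kif26a, its paralogue, read 5.06, 5.05, 4.02 and 4.72, or 2.06-fold lower with dox in Sca1+ and 1.26-fold in Sca1- cells. The call in Sca1+ cells ends with levels under 32 set to 32 (-0.06, log2) and with centring on genes of 100 or more (-0.97). Kif2a, a microtubule depolymerase of spindle poles and neurons and the close relative of Kif2c, read 7.58, 7.52, 7.42 and 7.38, a span of 0.20. Kif7, which works in Hedgehog signalling at the tip of cilia, read 7.05, 6.62, 6.98 and 6.83. Kif2a and Kif7 were within 1.34-fold in every comparison. Kif6, Kif9, Kif21b and Kif27 read at or below 4.58 on all arrays, and Kif12 and Kif28 lay at the floor throughout.

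The partners of the mitotic motors were read from a list of 18 spindle and cytokinesis genes, of which 17 were measured. With dox, 8 were at least 2-fold lower in Sca1+ and 15 in Sca1- cells, none was higher, and the medians were -0.89 and -1.94, where 12.9% and 11.3% of all genes analysed were 2-fold lower. Between the fractions, 14 were at least 2-fold higher in Sca1+ cells without dox, 15 with dox and 14 both times, with medians of 1.24 and 2.49, where 3.07%, 2.52% and 1.08% of all genes analysed were. The lowest mean dox differences were those of Aurkb, the kinase of the chromosomal passenger complex (-1.69 in Sca1+ and -3.10 in Sca1- cells), Cdk1, the mitotic cyclin-dependent kinase (-1.33 and -3.31), and Anln, a scaffold of the contractile ring (-1.42 and -3.03). Those closest to 0 were Numa1 (-0.34 and -0.06), a spindle-pole protein, Ckap5 (-0.25 and -0.32), a microtubule polymerase, and Tpx2 (-0.70 and -1.02), the activator of Aurora A. Cenpe, a kinetochore kinesin outside the symbol rule, read 8.14, 6.90, 7.75 and 4.86, with the same order of arrays as Kif2c and Kif20a.

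Of 15 cargo partners of transport kinesins, 14 were measured. None was 2-fold different with dox in Sca1+ cells and 2 were in Sca1- cells, with medians of 0.07 and 0.24. Of all genes analysed, 8.47% were 2-fold higher and 12.9% lower in Sca1+ cells, and 7.20% and 11.3% in Sca1- cells. Trak1, a mitochondrial adaptor, had the largest dox difference, at -0.91 in Sca1+ and -1.60 in Sca1- cells, while its paralogue Trak2 was at 0.79 and 0.84. Klc3, a kinesin light chain, was at 0.92 and 1.11. Rhot1, the mitochondrial anchor of these adaptors (-0.07 and 0.02), Kifbp, a kinesin-binding protein (-0.28 and 0.06), and Klc1, the main light chain (0.03 and 0.24), were closest to 0.

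Markers of the cells and of RNA were read beside these results. Of 8 mammary epithelial markers 7 were above the floor on every array, all but Krt19, and their summed linear level ran from 9429 in dox Sca1+ to 14315 in untreated Sca1- cells. Single markers differed with dox and between the fractions. With dox, Krt5, a basal keratin, differed by -4.00 (log2) in Sca1+ cells and -3.13 in Sca1- cells. Krt8, a luminal keratin, was at -1.73 and -1.96, and Epcam at -1.04 and -0.76. The markers did not share a direction. Krt14 was at 0.10 and 0.38, Cdh1 at 0.34 and 0.15, Krt18 at 0.07 and -0.79, and Trp63 at -0.43 and -0.15. Between Sca1+ and Sca1- cells without dox, Krt8 was at -1.69, Krt18 at -1.60 and Trp63, a basal transcription factor, at 1.36, and with dox they were at -1.46, -0.74 and 1.08. The other basal markers did not follow Trp63 with dox: Krt5 was at 0.70 without and -0.17 with dox, and Krt14 at 0.23 and -0.05. Epcam was at -0.36 and -0.64 and Cdh1 at -0.40 and -0.21. Of 4 measured leukocyte and 4 endothelial markers none exceeded 3.68, with Ptprc, Cd3e, Cdh5 and Tek at the floor throughout. Of 5 fibroblast markers Col1a1 lay at the floor and Col1a2 at or below 3.53, but Dcn went from the floor to 9.41 and 8.42 with dox, and the summed level of the list was 58.9 and 75.4 in untreated and 730 and 404 in dox cells, which is mostly Dcn. Pdgfra went from 4.24 to 4.12 in Sca1+ and from 5.15 to 4.45 in Sca1- cells, and Lum from the floor to 3.62 and 4.14. As a sign of RNA quality, the 3' actin control read above the 5' one by 0.69 (log2) in untreated Sca1+ cells, where mitotic levels were mostly highest, and by 0.91 in dox Sca1- cells, where they were lowest, with 0.81 and 0.83 on the arrays between; for Gapdh the same quantity ran from -0.10 to 0.11. The part of these marker differences or of RNA quality in the kinesin differences was not tested.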

How the data were processed

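RNA of 4 sorted cell populations, 1 array each, was labelled by an Affymetrix 3' IVT protocol, per the labels' protocols. The deposited table holds a log2 level for each of 45101 probe sets. How the authors summarized and scaled probes, and with which software, was not stated in the labels, and the shared lowest value of 3.32 was read from the table. Such a floor shortens differences of dim genes, and 3' priming limits each probe set to the transcript end it covers.

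Values were used as deposited. Of the probe sets, 34958 had 1 gene symbol in GEO's platform annotation, 932 several (not used, 1 of them for a kinesin) and 9211 none. All 41 member symbols were found in the RefSeq gene table of GRCm38.p6. Of several probe sets of a gene, that with the highest mean log2 level was taken, differences of log2 levels were formed, and changes of 2-fold or more were counted. No test was made, since each group has 1 array. The number of arrays, the floor and probe sets that disagree all limit the precision. Named were all mitotic members, other members with a linear level of 100 or more on an array or a 2-fold difference with an array of 32 or more, and, for partner lists, the 3 largest and the 3 smallest mean dox differences; members outside this rule are given by their range. Kif3b and Kif13b were named to complete their families after their values were seen. The code of the counting rule was run on simulated data without noise, which checks the code and not the reliability of a call. Members and lists were chosen with earlier results of these data known. Planned protein features were not computed. Python 3.11.15, pandas 2.3.3, numpy 2.4.6 and matplotlib 3.10.9 were used.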

Additional observations from a re-analysis of the deposited data

Results flagged for a closer look

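The dox differences of 2 kinesins had opposite signs in the fractions, each by at least 0.25 (log2), and the difference was not tested. For Kif22 they were 0.36 (Sca1+) and -1.05 (Sca1-) by its most intense probe set, and below 0 in both fractions by the other two. For Kifc2 the differences were -0.61 (Sca1+) and 0.64 (Sca1-), where 1 side of each difference lies at the floor. The Sca1 difference of Kifc2 was 0.61 without and -0.64 with dox, from the same values. Its highest level was 3.96.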

How the results depend on the processing

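Medians and counts of the mitotic and transport lists were recomputed under 6 alternatives: the mean of all probe sets, no _s_at or _x_at probe sets, quantile normalization, centring on genes of 100 or more, a floor of 32, and genes above the floor on every array only. Of 96 values, 92 moved by no more than 1.5 times, and no median of 2-fold or more changed sign. The transport Sca1 medians, near 0, ran from -0.09 to 0.04. With the mean of all probe sets, the mitotic Sca1 median with dox was 1.45, 3 mitotic kinesins were 2-fold different with dox in Sca1+ cells and 2 transport kinesins in Sca1- cells. With the floor of 32, the mitotic dox median in Sca1- cells was -1.06. Averaging includes probe sets at the floor, and the higher floor bounds dim values, which by construction shortens differences. Over the alternatives, mitotic dox medians ran from -0.98 to -0.57 in Sca1+ and from -2.02 to -1.06 in Sca1- cells. Kif3a in Sca1+ cells passed the size rule under both scalings. Kifc1 has no value without its _s_at probe set, and Kif22 was at -1.21 in Sca1+ cells without such probe sets. A window of 30 bases each side of the start site, added after seeing the data, leaves 8 of the 10 mitotic promoters with a CHR. The largest shift of the median of all genes by a scaling was 0.07. No replicate numbers pair the arrays; an additive fit of treatment and fraction over the 4 arrays, which would count the difference between the dox differences as error, was not run.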
